A study of Mus musculus with 3 samples.

Results

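The BCL2 family of apoptosis regulators was followed here through 10 genes, Bcl2, Bcl2l1, Bcl2l2, Mcl1, Bak1, Bcl2l11, Bbc3, Bid, Bad and Bmf, out of 18193 genes on the arrays. A probe set was taken for a member when its annotation named that gene alone, which gave 35 of 45037 probe sets. RNA came from NIH3T3, an immortalized fibroblast line of NIH/Swiss mouse embryos, and each of the 3 conditions was measured on 1 Affymetrix GeneChip mouse genome array. The control cells were labelled untransduced, the mtYAP cells carried Yap S112A, in which the serine at residue 112 that the LATS kinases phosphorylate is an alanine, and the YAP cells carried wildtype Yap. All 3 cultures were kept in medium with 10% calf serum. Both Yap coding sequences were delivered by a retroviral vector, and the infected cells that survived puromycin were used without cloning being described, whereas the control label names no vector. The methods also mention an empty-vector virus, and whether it was used for the control array was not given in the sources used here.

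Proteins of the BCL2 family decide whether the outer membrane of the mitochondria stays intact. The protective members BCL2, BCL-XL (Bcl2l1), BCL-W (Bcl2l2) and MCL1 hold the pore-forming members BAX and BAK (Bak1) in check. BH3-only members such as BIM (Bcl2l11), PUMA (Bbc3), BID, BAD and BMF bind the protective proteins, and some of them also activate the pore-formers directly, which releases cytochrome c and starts the caspases. BIM and BMF are known for their part in cell death after loss of growth factors or of attachment to the matrix.

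Values are log2 expression levels, so that a difference of 1 is a 2-fold difference, and a gene's level is the mean of its probe sets. With 1 array per condition there was no spread between replicates and no test, and every difference compares single arrays that share the same control. A lower level in every cell and a lower number of expressing cells cannot be told apart in such bulk RNA. A level of at least 6 on at least 1 array was taken as measured, and 20 of the 35 probe sets met it, with at least 1 for each of the 10 genes. Median levels over all probe sets were between 4.56 and 4.60 on the 3 arrays.

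The largest differences of gene means in the family were those of 2 BH3-only genes. In mtYAP, Bcl2l11 and Bmf lay below control by a log2 difference of more than 1, and no member lay above it by as much. The members below −1 were thus 2 of 10, where 4.06% of all genes lay there, and 3.77% of all genes lay above 1. Among genes that reached a level of 6 the spread was wider, and 5% of them lay below −1.31 in mtYAP. At a smaller limit of 0.5, 3 members were below (Bcl2l11, Bmf and Bad) and 2 above (Bid and Bcl2l1), where 11.5% and 11.6% of all genes were. In YAP none of the 10 members passed 1 in either direction, where 1.36% of all genes lay above and 1.26% below. Bcl2l11 alone passed the smaller limit in YAP, below control, where 5.36% of all genes lay below and 6.38% above. Counted as single probe sets, 6 of 35 lay below −1 in mtYAP, against 4.63% of all probe sets. All 6 belonged to death-promoting members, most of them to Bcl2l11 and the others to Bmf and Bad. No probe set of the family lay above 1 in mtYAP (3.90% of all probe sets), and none passed 1 in YAP, where 1.46% of all probe sets lay above and 1.53% below.

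**Figure D1:**
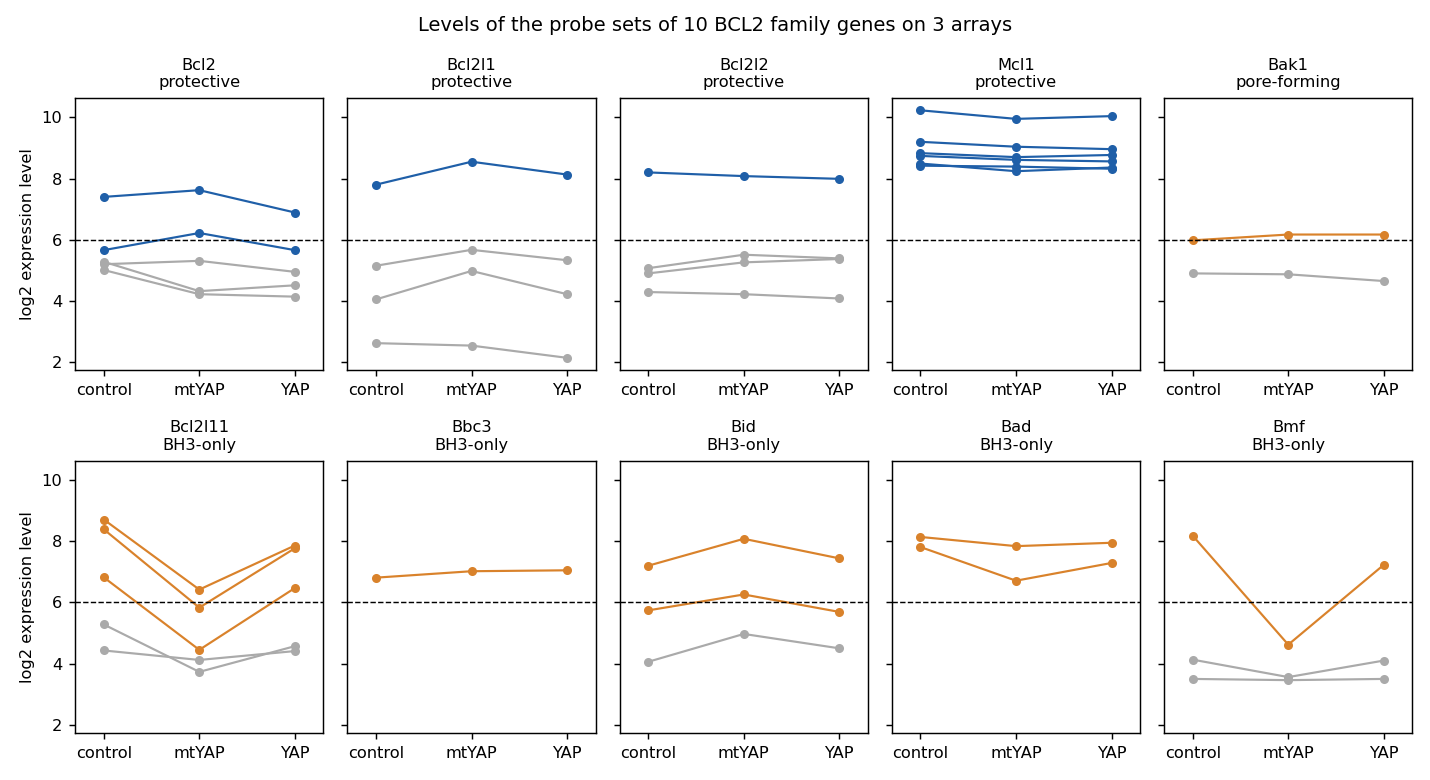
Log2 expression level (vertical axis) on the control, mtYAP and YAP arrays (horizontal axis) for the 35 probe sets of the 10 genes, with 1 line per probe set. Blue lines are protective and orange lines death-promoting members, grey lines are probe sets under a level of 6 on every array, and the dashed line marks 6. The measured probe sets of Bcl2l11 and Bmf dip in mtYAP, and the 6 of Mcl1 run nearly level.

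Bcl2l11 encodes BIM, which binds all the protective members and also activates BAX and BAK. Its mean level stood at 6.73 in control, 4.91 in mtYAP and 6.22 in YAP. The mtYAP array was the lowest, by a log2 difference of −1.82 from control and −1.31 from YAP, and the difference of YAP from control was −0.51. Of all genes, 1.04% lay as low or lower in mtYAP. Among genes that reached 6, as Bcl2l11 did, the spread was wider, with 5% below −1.31. Each of the 5 probe sets lay below control in both lines, with differences between −2.56 and −0.31 in mtYAP. The 3 measured ones had levels of 8.39, 6.82 and 8.71 in control, 5.83, 4.45 and 6.42 in mtYAP, and 7.77, 6.47 and 7.86 in YAP. Their differences from control in mtYAP were −2.56, −2.37 and −2.29, and those in YAP were −0.62, −0.35 and −0.85. The third of them reached 6 on all 3 arrays and was 4.89-fold lower in mtYAP. The first and the second lay under 6 in mtYAP, and with that level in its place their differences were −2.39 and −0.82, which are lower bounds on their size. The probe sets of a gene read the same RNA on the same array, so their number does not replace replicates. The other 2 probe sets, under a level of 6 throughout, differed by −1.55 and −0.31 in mtYAP.

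Bmf encodes a BH3-only protein that is held at the actin cytoskeleton by a dynein light chain in attached cells. Its probe sets averaged 5.27 in control, 3.88 in mtYAP and 4.94 in YAP, which gave differences of −1.39 in mtYAP and −0.33 in YAP. These means hide a large difference in the only probe set that was measured. That probe set stood at 8.18 in control, 4.62 in mtYAP and 7.23 in YAP. It lay 3.56 below control in mtYAP and 0.95 below control in YAP (1.93-fold lower). Its mtYAP level is under 6 and close to the median of that array, 4.57, so the size of that difference is uncertain. With the level of 6 in its place, control was at least 4.53-fold higher. The other 2 probe sets stayed between 3.46 and 4.13 on all arrays, near background, and differed by −0.57 and −0.04 in mtYAP. The measured probe set is of the _s kind, whose probes can also match transcripts of another gene, and without it and the _x probe set the mtYAP difference of Bmf was −0.57, past 0.5 but not past 1.

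Bcl2l11 and Bmf lie on the same chromosome, and RefSeq lists 2 starts for the former and 3 for the latter. The windows of 250 bases before the most upstream start of each are shown because these genes stood furthest from control. They were read from RefSeq sequence of GRCm38.p6, at chr2:128125788-128126037 on the plus strand for Bcl2l11 and at chr2:118549687-118549936 on the minus strand for Bmf, and capitals mark the match to a forkhead motif.
Bcl2l11: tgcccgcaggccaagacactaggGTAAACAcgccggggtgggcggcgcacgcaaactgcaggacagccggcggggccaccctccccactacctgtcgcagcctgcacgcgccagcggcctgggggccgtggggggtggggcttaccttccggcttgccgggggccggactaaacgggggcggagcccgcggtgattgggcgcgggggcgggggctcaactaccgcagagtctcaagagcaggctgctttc
Bmf: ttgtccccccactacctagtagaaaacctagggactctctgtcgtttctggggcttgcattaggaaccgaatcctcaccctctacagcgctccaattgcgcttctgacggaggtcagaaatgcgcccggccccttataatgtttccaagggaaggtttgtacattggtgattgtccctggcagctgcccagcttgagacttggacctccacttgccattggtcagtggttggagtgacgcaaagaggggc
Each of 4 motifs was searched on both strands, GTAAACA for forkhead factors such as the FOXO proteins, CACGTG (the E-box that MYC and MAX bind), GGAATG for the TEAD factors and TGAGTCA for AP-1. The Bcl2l11 window held the forkhead motif between 227 and 221 bases before the start, and the Bmf window held none of them. Over the 18 windows of the 10 genes, the forkhead motif was in 2 (Bcl2l11 and the second start of Bbc3), GGAATG in 2 (Bcl2l1 and Mcl1), CACGTG in 1 (the third start of Bbc3) and TGAGTCA in 0, and no window held more than 1 match. Among all 32851 such windows, 3.17% held the forkhead motif, 12.6% GGAATG, 6.02% CACGTG and 4.46% TGAGTCA. A match describes the letters of the window and not binding. The FOXO genes themselves, named after their values were seen, differed from control in mtYAP by −0.51 (Foxo1), −0.54 (Foxo3) and 0.055 (Foxo4), and only Foxo3 reached a level of 6, with 6.40 in control.

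Bid and Bad, also BH3-only, ran in opposite directions. Bid encodes a protein that caspase-8 cuts to link death receptors to the mitochondria. It stood at 5.67 in control, 6.44 in mtYAP and 5.88 in YAP. The mtYAP difference of 0.77 (1.71-fold) was the highest of the 10 members. The 3 probe sets lay above control in mtYAP, by 0.52 to 0.91. In YAP the difference was 0.21, with 2 probe sets above control and 1 just below. The better measured probe set read 7.20 in control, 8.08 in mtYAP and 7.44 in YAP. In all genes, 6.38% lay as high as Bid or higher in mtYAP. Among genes that reached 6 the spread was wider, with 95% below 1.25 there.

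Bad encodes a BH3-only protein that binds BCL2, BCL-XL and BCL-W and is switched off by phosphorylation after growth factor signals. It stood at 7.975 in control, 7.275 in mtYAP and 7.62 in YAP, lowest in mtYAP. The differences were −0.70 in mtYAP (1.62-fold lower) and −0.355 in YAP. Its 2 probe sets, both well above 6, agreed in direction and not in size. They read 8.14 and 7.81 in control, 7.84 and 6.71 in mtYAP, and 7.95 and 7.29 in YAP, so that 1 differed by −0.30 and the other by −1.10 in mtYAP.

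Bbc3 encodes PUMA, a BH3-only protein best known as a target of p53. Its single probe set read 6.81 in control, 7.02 in mtYAP and 7.05 in YAP, a difference of 0.21 and 0.24. Bak1, the pore-former among the members, stood at 5.44 in control, 5.52 in mtYAP and 5.41 in YAP. No difference of these genes reached 0.5 in either line. The Bak1 probe set that reached a level of 6 was 0.19 above control in both lines, and the other lay 0.03 and 0.25 below.

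**Figure D2:**
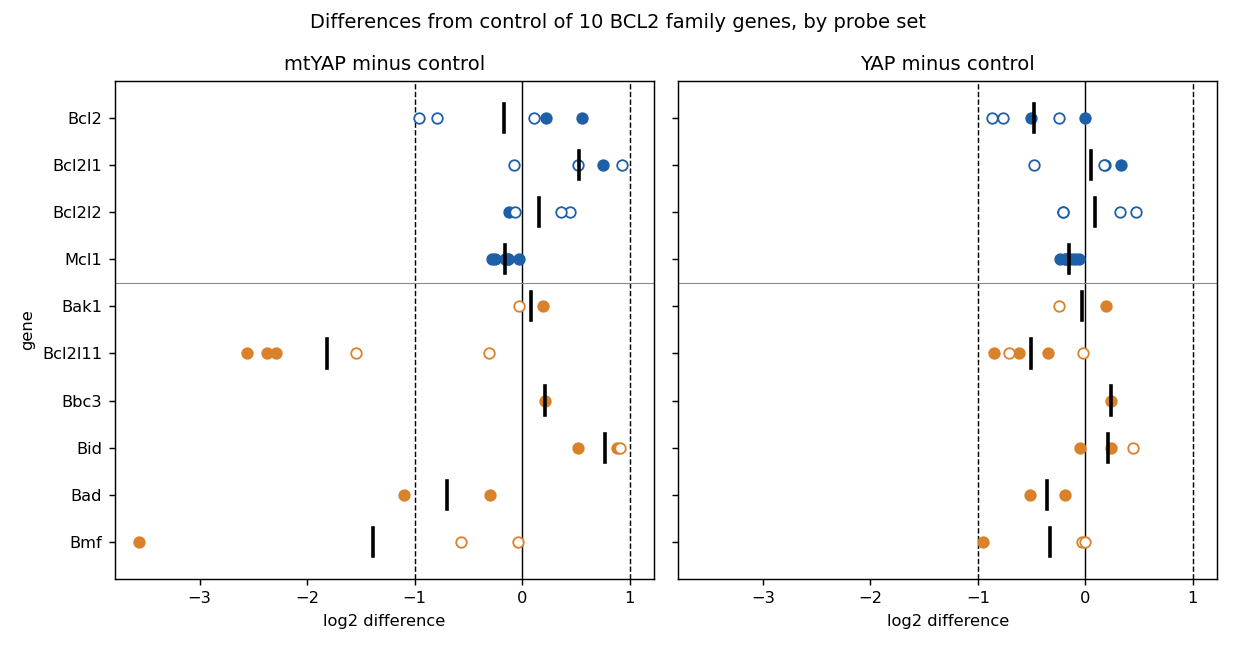
Log2 differences (mtYAP or YAP minus control, horizontal axis) of the probe sets of the 10 genes (vertical axis). Filled points reached a level of 6 on at least 1 array and open points did not, blue marks protective and orange death-promoting genes, black bars are the means per gene, and dashed lines mark −1 and 1. The Bmf probe set at −3.56 and the 3 measured Bcl2l11 probe sets between −2.56 and −2.29 stand apart in mtYAP.

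None of the 4 protective members passed 1 in mtYAP or in YAP. Mcl1, which encodes a short-lived protein, stood at 8.985 in control, 8.82 in mtYAP and 8.835 in YAP. All 6 of its probe sets were measured, and all 6 lay slightly below control, by 0.03 to 0.28 in mtYAP and by 0.06 to 0.24 in YAP. Bcl2l1, which encodes BCL-XL, had levels of 4.905 in control, 5.435 in mtYAP and 4.955 in YAP, highest in mtYAP. Its difference was 0.53 in mtYAP (1.44-fold) and 0.05 in YAP. The only measured probe set of Bcl2l1 read 7.80 in control, 8.55 in mtYAP and 8.13 in YAP, or 0.75 and 0.33 above control. That probe set was 1 of 3 above control in mtYAP, and the fourth, at 2.62 in control and so near background, lay 0.08 below. With the _s, _x and _a probe sets left out, the Bcl2l1 difference in YAP was −0.075, so its direction there is not settled.

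For Bcl2, the founding member of the family, the probe sets went both ways. The mean stood at 5.71 in control, 5.54 in mtYAP and 5.23 in YAP, with differences of −0.17 and −0.48. In mtYAP 3 probe sets were above control and 2 below, from −0.96 to 0.56. The best measured probe set read 7.40 in control, 7.62 in mtYAP and 6.89 in YAP, so that by this probe set Bcl2 was 0.22 above control in mtYAP and 0.51 below in YAP. YAP was the lowest of the 3 arrays by both readings, and the place of mtYAP depends on the probe set. Bcl2l2, which encodes BCL-W, stood at 5.615 in control, 5.77 in mtYAP and 5.71 in YAP. Its measured probe set read 8.20, 8.08 and 7.99 in the same order, or −0.12 in mtYAP and −0.21 in YAP, against 0.15 and 0.09 for the mean of its probe sets.

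As classes, the 4 protective members had a median difference of −0.01 in mtYAP and −0.05 in YAP. The 6 death-promoting members had medians of −0.31 and −0.18, where the medians over all genes were 0.02 in mtYAP and −0.003 in YAP. Of the death-promoting members, 3 lay above control and 3 below in mtYAP, where 46.5% of all genes lay below. In YAP 2 lay above and 4 below, where 50.2% of all genes lay below. Among the 4 was Bak1 at −0.03, with its measured probe set at 0.19. The class median therefore describes a split class, in which Bcl2l11, Bmf and Bad were lower and Bid, Bbc3 and Bak1 higher in mtYAP. The protective median exceeded the death-promoting one by 0.305 in mtYAP and 0.13 in YAP. The sign of this gap turned in YAP with the probe set of the highest mean level per gene and without _s, _x and _a probe sets. It also turned there with genes of a level of at least 6 or 7 only. The means of only 5 of the 10 members reach 6, and Mcl1 is the only protective member among them. Over all alternatives the gap ran from 0.08 to 0.32 in mtYAP and from −0.22 to 0.13 in YAP. The 0.08 comes from the limits of 6 and 7 and so has Mcl1 alone on the protective side.

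Protective and death-promoting proteins of the family bind each other, so the shift of the log2 ratio of their mRNAs from control was taken for the 24 pairs of a protective and a death-promoting gene. These shifts are differences of the values above and add no measurement. All 4 protective genes shifted upward against Bcl2l11 in mtYAP, by 1.64 to 2.35, and against Bmf, by 1.22 to 1.92. The largest shift was that of Bcl2l1 against Bcl2l11, at 2.35 on the log2 scale. Against Bid all 4 shifted downward, by 0.24 to 0.94. With the probe set of the highest mean level per gene, the mtYAP range was 2.01 to 3.04 against Bcl2l11 and 3.28 to 4.31 against Bmf. Without _s, _x and _a probe sets it was 1.53 to 2.08 against Bcl2l11 and only 0.35 to 0.905 against Bmf, all under 1. In YAP all shifts lay between −0.72 and 0.60, and those against Bcl2l11 between 0.03 and 0.60. These too depended on the probe sets. With the probe set of the highest mean level, the YAP shifts ran from 0.34 to 1.18 against Bcl2l11 and from 0.44 to 1.28 against Bmf, and without _s, _x and _a probe sets from −0.05 to 0.255 and from −0.35 to −0.045.

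**Figure D3:**
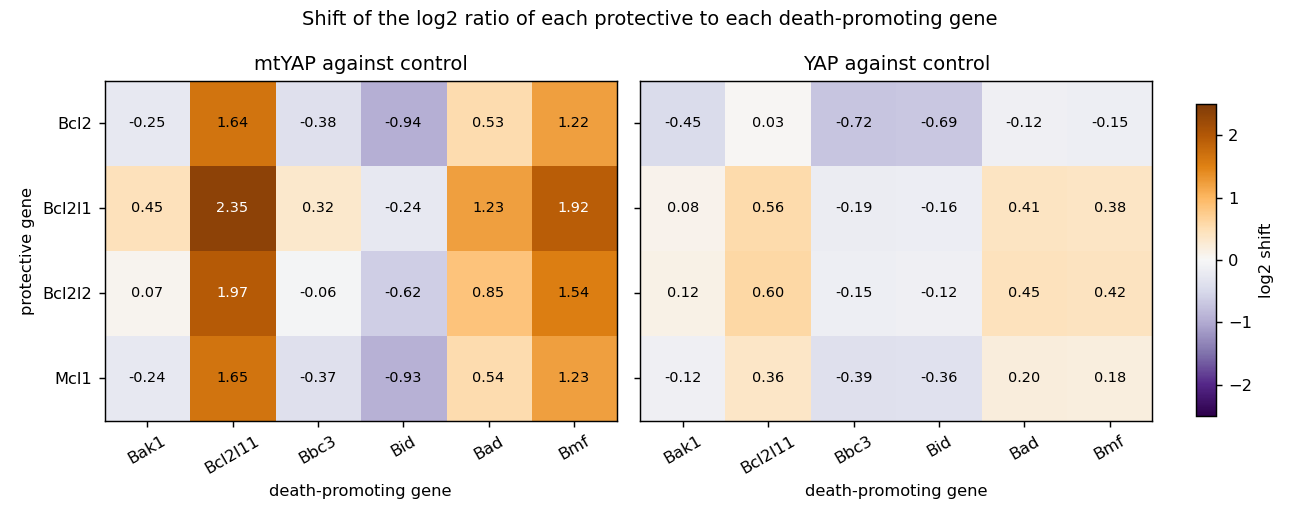
Shift from control of the log2 ratio of each protective gene (rows) to each death-promoting gene (columns), in mtYAP and YAP, with the value in each cell and on the colour scale. Orange cells are shifts toward the protective gene and purple cells toward the death-promoting gene. The Bcl2l11 and Bmf columns are above 1 throughout in mtYAP, and no cell passes 1 in YAP, both for the means of all probe sets per gene.

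**Figure D4:**
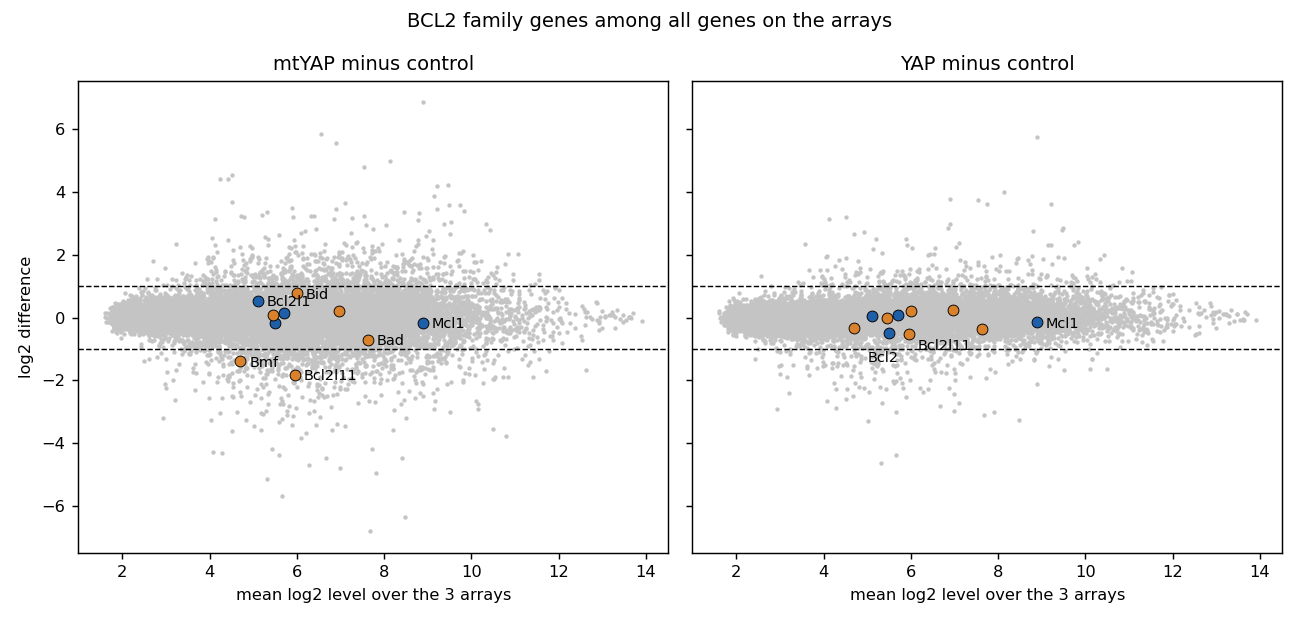
Log2 difference from control (vertical axis) against the mean level over the 3 arrays (horizontal axis) for 18193 genes (grey), with the 10 members on top (blue protective, orange death-promoting) and dashed lines at −1 and 1. Bcl2l11 and Bmf lie under the lower line in mtYAP, and all members lie between the lines in YAP.

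The plot against the level shows how far genes spread. In mtYAP 5% of all genes lay below −0.90 and 95% below 0.88, and in YAP these limits were −0.52 and 0.565. Among the 7129 genes that reached a level of 6 they were wider, −1.31 and 1.25 in mtYAP and −0.68 and 0.78 in YAP. Of the members, Bcl2l11 and Bmf were outside both ranges in mtYAP, Bmf at −1.39 barely so in the wider one. The mean level of Bmf, at most 5.27, is under 6, so Bmf is not among the genes of that wider range. No member was outside in YAP, where Bcl2l11 at −0.51 was just inside the narrower one.

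In the lists that follow, a gene counts where a probe set names it alone, and how many reached a level of 6 is given beside it. Bok, a pore-former that acts without BAX and BAK, stood at 7.26 in control, 6.85 in mtYAP and 7.07 in YAP. Bax is not analysed here. The 9 genes of BH3-only and BH3-bearing proteins outside the members, of which 3 reached 6, had a median difference of 0.18 (mtYAP) and 0.05 (YAP). Only 1 of them passed 1 in mtYAP, above control, where 3.77% of all genes lay above 1. It was Pmaip1, which encodes NOXA, a partner of MCL1 and like Bbc3 a known target of p53. It read 2.57 in control, 3.60 in mtYAP and 2.62 in YAP, near background on all 3 arrays, and its mtYAP difference was 1.03. Bnip3, a mitochondrial protein of mitophagy, stood at 10.50, 10.68 and 11.17, highest in YAP. Bcl2l13 differed by 0.41 and Becn1, an autophagy protein, by 0.32 in mtYAP. Of 5 other protective genes only Bcl2l10 had a probe set of its own, which was near background on all arrays, at most 3.76.

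Downstream of the pore came 11 genes of the apoptosome, the caspases and the mitochondrial death factors, of which 7 reached 6. In mtYAP 7 lay above control and 4 below, where 46.5% of all genes lay below. In YAP 5 lay above and 6 below, where 50.2% of all genes lay below, and none passed 1. Only Casp6 passed 1 in mtYAP, below control, where 4.06% of all genes lay below −1. The median was 0.10 (mtYAP) and −0.01 (YAP). Casp6, an executioner caspase, went from 6.155 in control to 5.13 in mtYAP and 5.615 in YAP, a difference of −1.025 in mtYAP. Cycs, which encodes cytochrome c, differed by 0.63 in mtYAP and −0.065 in YAP. Its probe sets that reached 6 differed by 0.90, 0.81 and 0.96 in mtYAP and by 0, 0.02 and 0.12 in YAP. The remaining Cycs probe set, at 3.44 in control, differed by −0.14 and −0.40. Htra2 and Diablo, whose proteins neutralize inhibitors of apoptosis once released, differed by 0.81 and 0.56 in mtYAP and by 0.495 and 0.43 in YAP. Among 6 inhibitors of apoptosis, of which 4 reached 6, 1 lay above 1 and 1 below −1 in mtYAP. Of all genes, 3.77% lay above 1 and 4.06% below −1 there. None of the 6 passed 1 in YAP, and the median was −0.04 (mtYAP) and −0.02 (YAP). Birc5, which encodes survivin, a protein that also acts in cell division, stood at 6.65 in control, 7.98 in mtYAP and 7.34 in YAP. Birc3 and Birc2, the ubiquitin ligases cIAP2 and cIAP1, were lower, by 1.165 and 0.44 in mtYAP. The measured Birc3 probe set differed by −1.77 there. Birc6 differed by 0.16.

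Of 10 genes of death receptors and their adaptors, 8 lay below control and 2 above in mtYAP, where 46.5% of all genes lay below, and the same numbers in YAP, where 50.2% did. Only 5 of the 10 reached 6, and the medians were −0.29 and −0.185. None passed 1. The furthest from control was Tnfrsf10b, a receptor of TRAIL, named after its values were seen, which was above control by 0.96 in mtYAP and 0.44 in YAP at levels of no more than 4.61. Casp8, the protease that cuts BID, stood at 8.96 in control, 8.03 in mtYAP and 8.54 in YAP. Tnfrsf1a, a receptor of tumour necrosis factor, stood at 9.97, 9.05 and 9.60, in the same order of arrays. These 2 were lowest in mtYAP. Traf2, a signalling adaptor, differed by −0.54 and Fadd, the adaptor that binds CASP8, by −0.315 in mtYAP.

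Genes for proteins that turn over MCL1 or hold BH3-only proteins had medians near 0, −0.07 for the former and 0.08 for the latter in mtYAP. Of 6 genes of MCL1 turnover (5 reached 6) none passed 1, and the furthest was Usp9x, a deubiquitinase that stabilizes MCL1, at 0.52 in mtYAP and 0.46 in YAP. The Usp9x probe sets above 7 in control differed by 0.06 to 0.40 in mtYAP, and the weaker ones by 0.69 to 0.98. Gsk3a differed by −0.20, Huwe1, a ubiquitin ligase for MCL1, by −0.11 and Gsk3b by −0.05 in mtYAP. The probe sets of Huwe1 ran from −0.88 to 0.73, and of those of Gsk3b only the one at −0.85 lay below control. Of 9 genes for the phosphoserine-binding Ywha proteins, which keep phosphorylated BAD in the cytosol, and for the dynein light chains (8 reached 6), none passed 1 in mtYAP or in YAP. Ywhae stood at 10.08, 10.845 and 10.62 in control, mtYAP and YAP. Dynll1, the dynein light chain that binds BIM, differed by −0.48, Ywhag by 0.44 and Ywhaq by −0.31 in mtYAP.

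Of 17 transcription factors known to act on family genes, of which 11 reached 6, 1 lay above 1 and 2 below −1 in mtYAP. Of all genes, 3.77% lay above 1 and 4.06% below −1 there. In YAP 1 factor lay above 1 and 1 below −1, where 1.36% and 1.26% of all genes did. The medians were −0.15 in mtYAP and −0.11 in YAP. The factor above 1 was Myc in both lines, at 7.75 in control, 10.71 in mtYAP and 9.66 in YAP. Mitf, a factor that controls Bcl2 in melanocytes, stood at 6.69, 4.525 and 5.56, and Relb, of the NF-κB family, at 6.97, 5.48 and 6.67. Both were lowest in mtYAP. Stat3, known to act on Bcl2l1 and Mcl1, differed by −0.985 in mtYAP and −0.38 in YAP. The Stat3 probe sets that reached 6 differed by −1.22, −1.47 and −1.02 in mtYAP, and the weak remaining one by −0.23. For Mitf the measured probe set differed by −3.05 in mtYAP.

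Among 9 genes of the outer mitochondrial membrane and of mitochondrial shape (8 reached 6), none passed 1, and the medians were 0.20 in mtYAP and 0.07 in YAP. Vdac3, a channel of the outer membrane, differed by 0.83, Opa1 and Dnm1l, which shape the mitochondria, by 0.59 and 0.56, and Fis1 by −0.435 in mtYAP. Of 5 partners of BCL2 proteins at the endoplasmic reticulum (4 reached 6) none passed 1, with medians of −0.14 and −0.10. Atp2a2, the calcium pump SERCA2, differed by −0.73 in mtYAP and −0.86 in YAP, Bcap31 by −0.295 and −0.18, Tmbim6 by −0.14 and −0.10 and Itpr3, a calcium channel, by 0.12 and 0.44.

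**Figure D5:**
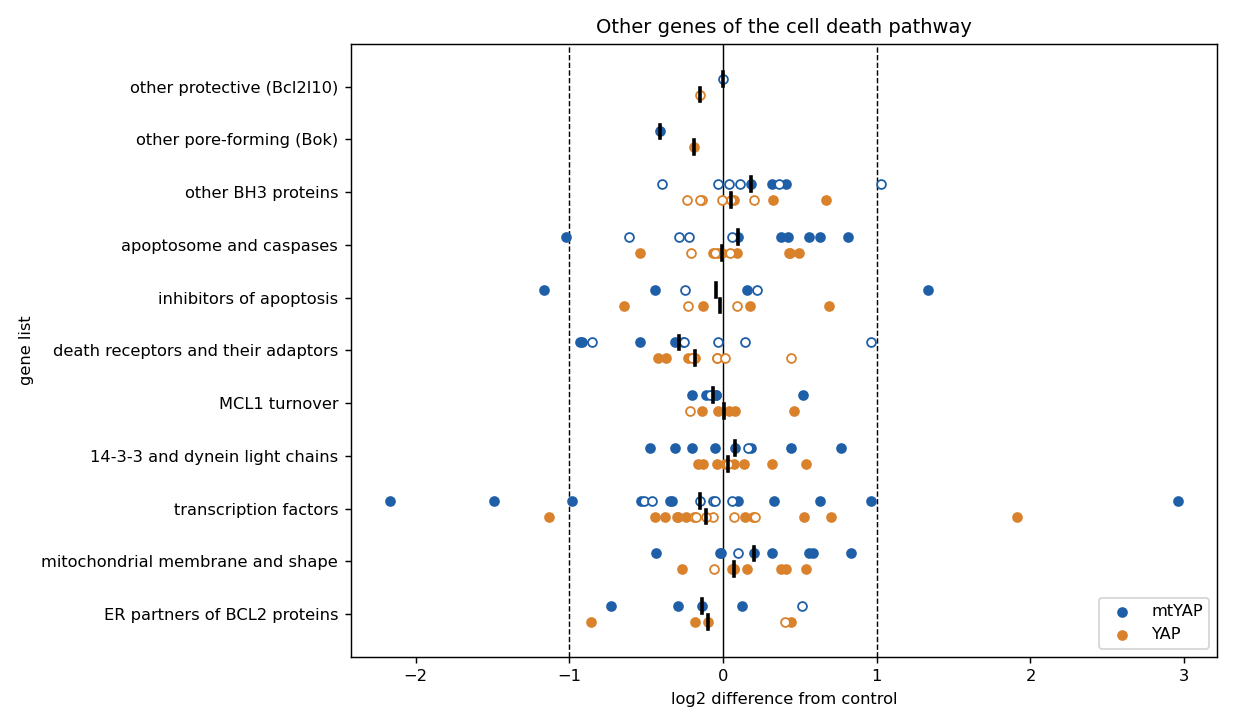
Log2 difference from control (horizontal axis) for the genes of 11 lists (vertical axis), in mtYAP (blue) and YAP (orange). Filled points reached a level of 6 on at least 1 array and open points did not, black bars are medians, and dashed lines mark −1 and 1. Most points lie between the dashed lines, with Myc, Mitf, Relb, Birc5, Birc3, Casp6 and the open point of Pmaip1 outside in mtYAP.

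The labelled cell type was met on all 3 arrays. All 10 fibroblast markers were at 7.07 or higher on each, and none of the 7 markers of embryonic stem cells, to which a free-text field of the control array refers, passed 4.15. No marker of epithelial, haematopoietic or endothelial cells passed 4.96. Beside the lower Bcl2l11 and Bmf, the fibroblast markers were lower too in mtYAP, 10 of 10 of them, 4 below −1, with a median of −0.74. Of all genes, 46.5% lay below control and 4.06% below −1 in mtYAP. In YAP 8 of 10 markers were below control and 1 below −1, with a median of −0.36. There 50.2% of all genes lay below control and 1.26% below −1. The summed level of the markers on the linear scale came to 35353 in control, 20927 in mtYAP and 31105 in YAP. Pdgfrb and Pdgfra, receptors of platelet-derived growth factor, stood at −2.615 and −2.41 in mtYAP, S100a4 at −1.68 and Thy1 at −1.67. Their part in the lower levels of Bcl2l11 and Bmf was not tested.

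Over the 3 arrays, the genes that reached a level of 6 and whose differences in mtYAP and YAP lay nearest to those of Bcl2l11 were Colec12, a scavenger receptor, Cyb5a, cytochrome b5, and Grik2, a glutamate receptor, at Euclidean distances of 0.03, 0.05 and 0.07. Nearest to Bid were Qtrt1, Snx18 and Rnf11, at 0.01, 0.02 and 0.03. Within a distance of 0.1 there were 8 genes for Bcl2l11 and 50 for Bid, so likeness over so few arrays singles out little.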

How the data were processed

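RNA of 3 NIH3T3 cultures was hybridized to 1 array each. The authors subtracted the background and normalized by robust multiarray analysis in R, and the deposited values are log2 levels per probe set, rounded to 2 decimals. RMA and affy are the tools listed in the submitters' processing notes, with no version. RMA places the 3 arrays on a common distribution, so a shift shared by most genes would not be seen. Whether further arrays entered the normalization is not given in these sources. The number of arrays limits the precision.

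Of 45037 probe sets, the platform annotation gave 1 gene symbol to 34945, several to 932 and none to 9160. Probe sets of 1 symbol were averaged per gene, giving 18193 genes, of which 7129 reached a level of 6. Control was subtracted from mtYAP and from YAP, and genes were counted above 1 and below −1, and at a limit of 0.5, on the log2 scale. No test was run, as each condition has 1 array. The members and lists were chosen with earlier results of these data known, and the lists were written from general knowledge. From each list, up to 4 genes with the largest mtYAP difference among those reaching 6 are named, with Bok and Pmaip1 in any case. Bax and the other listed genes that no probe set names alone are not analysed here. RefSeq promoter windows (GRCm38.p6) were matched by symbol for 10 of 10 members. For the members with the highest and the lowest mtYAP difference, the 3 genes of nearest pattern are named. Counting was tested on simulated data. As alternatives, each gene was read from its probe set of highest mean level, _s, _x and _a probe sets were dropped, probe sets naming several genes were added, genes were limited to a level of at least 6 or 7, and also tried were the median difference removed, a loess on the level removed (span 0.3), a limit of 0.5 and probe sets counted singly. Python 3.11.15 with numpy 2.4.6, pandas 2.3.3, statsmodels 0.14.6 and matplotlib 3.10.9 was used.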

Additional observations from a re-analysis of the deposited data

Results flagged for a closer look

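Bak1 lay on opposite sides of control in the 2 lines, at 0.08 in mtYAP and −0.03 in YAP, a gap of 0.11 between single arrays. The difference between the lines was not tested, and its measured probe set was 0.19 above control in both.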

How the results depend on the processing

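Of 198 values recomputed under 9 alternatives, 190 moved by no more than 1.5 times, and no member that differed by over 0.5 from control changed direction. For a log2 value that limit is a shift of 0.58, larger than the class medians and the gaps between them. The stability of those medians and gaps cannot be read from this count. The 30 values with probe sets of several genes kept were the same as the main ones. Bmf depended on its probe sets, at −3.56 in mtYAP and −0.95 in YAP with the probe set of the highest mean level, and at −0.57 in mtYAP without _s, _x and _a probe sets. In that last case the members below −1 were Bcl2l11 and Bad (−1.10). The number of members below −1 in mtYAP was 1 at a level of at least 6, since the mean of Bmf lies under it, and 0 at a level of at least 7, where Bcl2l11 is left out too. It was 6 with probe sets counted singly. At a limit of 0.5, 2 members lay above in mtYAP and 1 below in YAP. Bcl2l11 ranged from −2.29 to −1.75 in mtYAP and from −0.85 to −0.33 in YAP, below control under every alternative that kept it. Bad ranged from −1.10 to −0.30, Bid from 0.70 to 0.88, Bcl2l1 from 0.335 to 0.75 and Mcl1 from −0.28 to −0.16 in mtYAP, with no change of direction. Bcl2 and Bcl2l2 changed direction in mtYAP with the probe set of the highest mean level, Bcl2l2 also without _s, _x and _a probe sets, and both of these alternatives put Bcl2l2 at −0.21 and Bak1 at 0.19 in YAP. The protective median in mtYAP, near 0, ran from −0.16 to 0.05. The −0.16 is Mcl1 alone, the only protective member kept at a level of at least 6 or 7. The death-promoting median in mtYAP ran from −0.33 to −0.055, and in YAP from −0.18 to 0.03. No paired analysis was possible because each condition has 1 array.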
